A study of Mus musculus with 8 samples.

Results

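The genes described here are 7 subunits of the GABA-A receptor in the brain cortex of mice, 4 alpha subunits (Gabra2, Gabra3, Gabra4 and Gabra5), the beta subunits Gabrb1 and Gabrb2, and the delta subunit Gabrd. They were taken by gene name, 7 of the 13996 genes with expression values. RNA was measured in the cortex of male C57BL/6 mice that were 8 weeks old when feeding began and 16 weeks old at the end. For 8 weeks 4 of them received a conventional diet (normal) and the other 4 a diet with 60% fat by weight (high fat diet, HFD). Each mouse gave 1 stranded, paired-end library of RNA depleted of rRNA, and values are FPKM (fragments for each kilobase of a transcript, relative to all mapped reads), so that levels of different genes are per length. The read depth behind a value is unknown.

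GABA-A receptors are chloride channels opened by GABA, the main inhibitory transmitter of the cortex, and each is assembled from subunits of several classes, most often alpha and beta with gamma or delta. Receptors with gamma and alpha2 or alpha3 are enriched at inhibitory synapses, while alpha4 with delta, and much of alpha5, lie outside synapses and carry tonic inhibition. Delta is also paired with alpha6 in cerebellar granule cells, and alpha4 with delta is abundant in thalamus, striatum and dentate gyrus, so brain regions differ widely in their subunits.

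In the HFD mice Gabrd was lower in each mouse than in any normal mouse, and Gabrb2 likewise but by a smaller amount. Gabra4 was also lower on average, with overlap between the diets. Gabra3 and Gabrb1 were higher. Gabra2 and Gabra5 did not pass the test. Each gene was compared between the diets on log2(FPKM + 0.1) with limma, two-sided, and p was adjusted by Benjamini-Hochberg over 13982 genes (mean FPKM 1 or more, and above 0 in every mouse), which held all 7 subunits. At an adjusted p below 0.05, 5 of the 7 passed in limma, beside 33.1% of all genes tested. Of these, 3 were lower, beside 15.3% of all genes, and 2 were higher, beside 17.7%. With a change of over 1.5-fold also required, 1 of the 7 passed, beside 7.13% of all genes, and that gene was lower, as were 2.9% of all genes. The values of the diets did not overlap for 3 of the 7, beside 31.9% of all genes. The median log2 fold change was -0.14 over the 7 subunits and 0.0031 over all genes tested, and the median size of the change, without its sign, was 0.26 and 0.17. A gene past the threshold was thus common in these data, and the difference between 5 of 7 and that share was not tested.

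**Figure D1:**
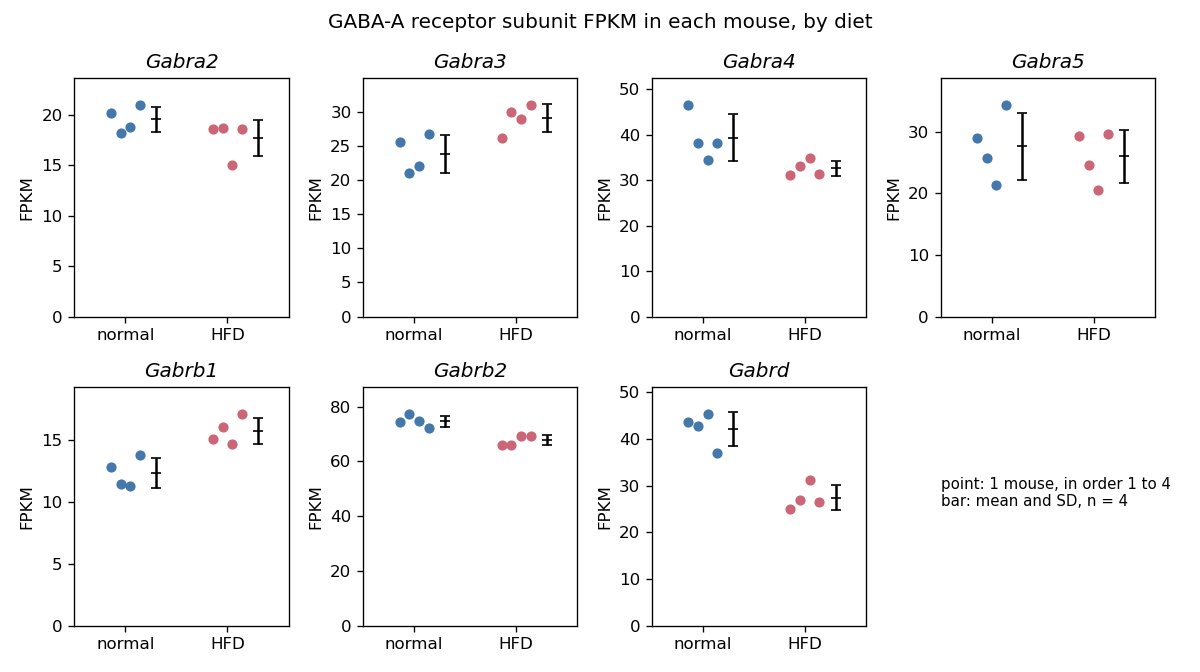
FPKM of the 7 subunits (vertical axis, from 0) in each of the 4 normal and 4 HFD mice (points, replicate 1 to 4 from left to right), with the mean and SD (bars, n = 4). Gabrd lay between 37.0 and 45.4 in normal mice and between 25.0 and 31.2 in HFD mice.

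Marker genes of other brain regions differed between the libraries, and are given before the subunits because several subunits vary by region. For each marker list in the text, 15.3% of all genes tested were lower and 17.7% higher, and no count was tested against those shares. Of 12 striatal projection neuron markers, 11 had values and 11 of 11 were lower in HFD mice. Their summed FPKM was 496.9, 409.0, 391.4 and 283.1 in normal mice 1 to 4 and 110.5, 110.4, 120.5 and 111.1 in HFD mice 1 to 4. Penk was the most abundant, and none was at 0. The normal mice were all above the HFD mice, and normal mouse 1 was highest. The 10 cerebellar granule cell markers summed to 58.9, 326.8, 430.8 and 139.1 in normal mice and 61.3, 59.3, 57.4 and 61.1 in HFD mice. Normal mice 2 and 3 were the highest, and normal mouse 4 was also above every HFD mouse, so leaving out normal mice 2 and 3 does not remove these markers. The sum of normal mouse 1 was within the HFD range, yet its Gabra6 and its values for each of the 5 markers that were lower in HFD mice, such as Cbln3 (1.6 against 0.2 to 0.6), were above all HFD mice. Of the 9 tested, 5 were lower, Calb2 was the most abundant, and Gabra6, the alpha subunit of cerebellar granule cells, was outside the filter, at 1.7, 46.5, 61.7 and 12.2 in normal mice and 0.0, 0.1, 0.1 and 0.2 in HFD mice. Thalamic markers, 8 of 9 with values and 4 lower, followed the same mice, with 65.6, 179.6, 175.9 and 77.4 in normal mice and 44.0, 48.8, 47.8 and 45.7 in HFD mice. Calb2, shared with the cerebellar list, was the most abundant and none was at 0. Purkinje cell markers, 5 of 6 with values and 4 lower, summed to 230.8, 450.8, 496.6 and 252.0 in normal mice and 176.8, 190.0, 225.0 and 176.5 in HFD mice, with Itpr1 the most abundant and none at 0. Normal mice 2 and 3 were again the highest. The calls of Itpr1 and Pvalb were both lost in limma without normal mouse 2 or 3, or HFD mouse 1, 2 or 4.

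Markers of cell types found in the cortex did not move as 1 group. The 12 cortical projection neuron markers, 7 of them higher and 1 lower in HFD mice, summed to 514.7, 379.3, 362.0 and 526.8 in normal mice and 568.3, 603.7, 681.6 and 560.4 in HFD mice, with Slc17a7 the most abundant and none at 0. Normal mice 2 and 3 were the lowest, and every HFD mouse was above every normal mouse. All 8 oligodendrocyte markers were lower in HFD mice, with sums of 2833.7, 3462.7, 3117.4 and 2103.7 in normal mice and 1509.7, 1451.3, 2019.1 and 1462.9 in HFD mice, Mbp being the most abundant and none at 0. The 8 markers of neurons in general did not pass the test in either direction, and their sums, 2677.4, 2441.0, 2382.4 and 2772.0 in normal mice and 2757.9, 2767.6, 3010.3 and 2690.8 in HFD mice, overlapped. In bulk tissue fewer cells of a type and less RNA per cell cannot be told apart. The part of these differences in the results for the subunits was not tested. Without normal mice 2 and 3 the number of genes past the threshold in limma was 2743 in place of 4626, with 1215 lower in place of 2146 and 1528 higher in place of 2480.

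**Figure D2:**
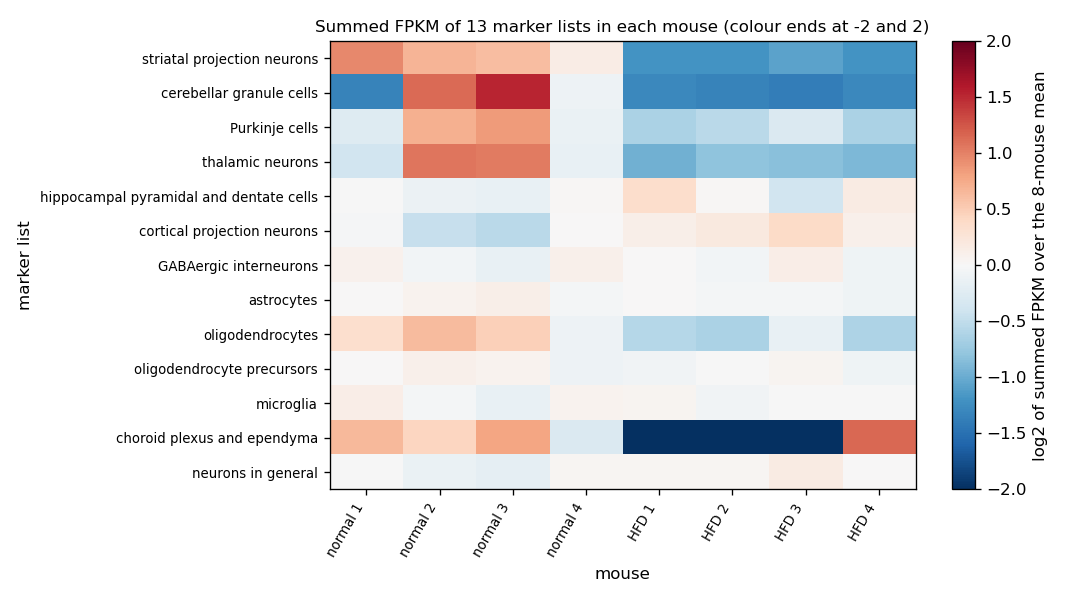
Summed FPKM of each of 13 marker lists (rows) in each mouse (columns), as log2 over the mean of the 8 mice, with colour ending at -2 and 2. The striatal row is high in normal and low in HFD mice, and the cerebellar granule cell and thalamic rows are high in normal mice 2 and 3.

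The delta subunit showed the largest change of the 7. Gabrd (ENSMUSG00000029054, chr4:155384980-155398112, minus strand) had an FPKM of 43.6, 42.8, 45.4 and 37.0 in normal mice 1 to 4 and 25.0, 26.9, 31.2 and 26.5 in HFD mice 1 to 4. Normal mouse 4 was the lowest of its diet and HFD mouse 3 the highest of its own, and the diets did not overlap. Normal mice averaged 42.2 ± 3.63 (SD, n = 4) and HFD mice 27.4 ± 2.66 (SD, n = 4). On the log2 scale the change was -0.62 (SE 0.082, 95% interval -0.80 to -0.44, adjusted p = 0.00112 from limma), so that Gabrd fell by 35.0%. With any 1 of the 8 mice left out, the change lay between -0.69 and -0.58 and was past the threshold. Without normal mice 2 and 3, in which the cerebellar and thalamic sums were highest, it was -0.55 (adjusted p = 0.0102 from limma). The striatal sum was high in all 4 normal mice, and its part in the lower Gabrd was not tested.

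Gabra4, the alpha subunit that joins delta outside synapses, fell as well. Its start lies beside that of Gabrb1, on the opposite strand, and the bases before it are shown because these neighbours moved in opposite directions. Gabra4 (ENSMUSG00000029211) spans chr5:71569749-71658308 on the minus strand and Gabrb1 chr5:71658113-72149037 on the plus strand of GRCm38. The genes share 196 bases, of which 46 are exon in both, 0.756% of the exon bases of Gabra4 and 0.332% of those of Gabrb1. No source used here says whether the authors counted reads by strand, so reads from those 46 bases may not be told apart. The RefSeq GRCm38.p6 stretch chr5:71658364-71658558, minus strand, 5' to 3', ends 56 bases before the Gabra4 start and lies in an intron of a Gabrb1 transcript of GENCODE M21, in no exon. Capitals mark the CCAAT box (CCAAT) and GC boxes (GGGCGG, here read on the other strand).
Gabra4: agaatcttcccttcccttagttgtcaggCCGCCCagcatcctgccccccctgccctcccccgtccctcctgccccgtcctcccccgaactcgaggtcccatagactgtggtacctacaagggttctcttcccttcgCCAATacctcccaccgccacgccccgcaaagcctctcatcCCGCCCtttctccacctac

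Gabra4 FPKM was 46.6, 38.2, 34.4 and 38.3 in normal mice and 31.2, 33.2, 34.8 and 31.4 in HFD mice. Normal mouse 1 was the highest and normal mouse 3 the lowest of its diet, below HFD mouse 3, so the diets overlapped. The means were 39.4 ± 5.15 (SD, n = 4) and 32.7 ± 1.69 (SD, n = 4), a log2 fold change of -0.26 (SE 0.085, 95% interval -0.45 to -0.07, adjusted p = 0.0400 from limma). This call was near the threshold. It was lost without the variance trend (adjusted p = 0.0632 from limma) and without normal mouse 1 (-0.18, adjusted p = 0.0534), normal mouse 2 (0.0708), normal mouse 4 (0.0573), HFD mouse 1 (0.0971), HFD mouse 2 (0.0767) or HFD mouse 4 (0.0893). It was -0.37 (adjusted p = 0.0212 from limma) without normal mice 2 and 3 together. Normal mouse 1, the highest in Gabra4, also had the highest striatal sum of 496.9, and the part of striatal markers was not tested.

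The beta subunits, which are needed for assembly and surface delivery and form part of the GABA site with alpha, moved in opposite directions. Gabrb2 is the more abundant of the pair here. Gabrb2 (ENSMUSG00000007653, chr11:42419757-42629028, plus strand) is shown with the 250 bases before its most upstream RefSeq start, chr11:42420190-42420439, GRCm38.p6, plus strand, 5' to 3', which GENCODE M21 places within the gene but in no exon. Capitals mark a GC box, read on the other strand, and a TATA box (TATAAA), for comparison with the Gabra4 stretch, since both genes fell.
Gabrb2: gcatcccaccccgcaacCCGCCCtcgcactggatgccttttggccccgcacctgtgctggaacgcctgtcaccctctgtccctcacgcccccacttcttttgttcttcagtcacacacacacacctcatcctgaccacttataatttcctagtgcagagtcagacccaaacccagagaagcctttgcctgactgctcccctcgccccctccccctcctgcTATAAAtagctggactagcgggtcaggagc

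Gabrb2 FPKM was 74.3, 77.4, 74.8 and 72.3 in normal mice and 66.1, 66.1, 69.3 and 69.3 in HFD mice. The spread within each diet was small and the diets did not overlap. The means were 74.7 ± 2.10 (SD, n = 4) and 67.7 ± 1.85 (SD, n = 4), a log2 fold change of -0.14 (SE 0.040, adjusted p = 0.0248 from limma), so that Gabrb2 fell by 9.36%. In limma the call was lost without normal mouse 2 (adjusted p = 0.0720), normal mouse 3 (0.0502), HFD mouse 1 (0.0678) or HFD mouse 2 (0.0703), and without normal mice 2 and 3 together (-0.11, adjusted p = 0.119).

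Gabrb1 (ENSMUSG00000029212), a beta subunit of lower level, had an FPKM of 12.8, 11.4, 11.3 and 13.8 in normal mice and 15.1, 16.0, 14.7 and 17.1 in HFD mice. Normal mice 2 and 3 were the lowest of all, and no normal mouse reached the lowest HFD mouse. The mean rose from 12.3 ± 1.20 (SD, n = 4) to 15.7 ± 1.07 (SD, n = 4), a log2 fold change of 0.35 (SE 0.078, 95% interval 0.18 to 0.53, adjusted p = 0.00861 from limma), or 27.6%. The call held without each of the 8 mice in turn. Without normal mice 2 and 3 together it was lost (0.24, adjusted p = 0.0585 from limma), while normal mice 1 and 4, at 12.8 and 13.8, were still below every HFD mouse. The cortical projection sum was likewise lowest in normal mice 2 and 3 and higher in every HFD mouse than in any normal mouse, and its part was not tested.

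Gabra3, an alpha subunit of synaptic receptors, lies on chromosome X (ENSMUSG00000031343, chrX:72432681-72656848, minus strand) and was the other subunit that rose. Its promoter is shown for comparison with those of Gabra4 and Gabrb2, which fell, as no window was available for Gabrd. The 250 bases before its most upstream RefSeq start, chrX:72656920-72657169, GRCm38.p6, minus strand, 5' to 3', hold 0 CpG and no GC box. Capitals mark a TATA box and a CCAAT box, both read on the other strand.
Gabra3: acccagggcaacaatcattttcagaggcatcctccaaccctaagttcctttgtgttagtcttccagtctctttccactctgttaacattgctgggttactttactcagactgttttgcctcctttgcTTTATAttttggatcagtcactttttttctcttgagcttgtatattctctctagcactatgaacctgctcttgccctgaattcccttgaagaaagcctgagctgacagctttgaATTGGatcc

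Gabra3 FPKM was 25.5, 21.0, 22.0 and 26.8 in normal mice and 26.2, 30.0, 29.0 and 31.0 in HFD mice. HFD mouse 1 was below normal mouse 4, so the diets overlapped, and normal mice 2 and 3 were again the lowest. The means were 23.8 ± 2.77 (SD, n = 4) and 29.1 ± 2.07 (SD, n = 4), a log2 fold change of 0.29 (SE 0.086, 95% interval 0.10 to 0.48, adjusted p = 0.0288 from limma). In limma the call was lost without normal mouse 2 (adjusted p = 0.0735), normal mouse 3 (0.0706), HFD mouse 2 (0.0750), HFD mouse 3 (0.0584) or HFD mouse 4 (0.0716). The change was 0.15 without normal mice 2 and 3 together (adjusted p = 0.180 from limma). Of the 7 subunits, 0 were then higher past the threshold, beside 1528 of 13982 genes, while Gabra4 and Gabrd were lower, beside 1215.

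Gabra2 and Gabra5 did not pass. Gabra2 (ENSMUSG00000000560, chr5:70957597-71095849, minus strand), a synaptic alpha subunit, had an FPKM of 20.2, 18.2, 18.8 and 21.0 in normal mice and 18.6, 18.7, 15.0 and 18.6 in HFD mice. HFD mouse 3 lay below the other mice and the diets overlapped. The log2 fold change was -0.14 (95% interval -0.33 to 0.04, adjusted p = 0.197 from limma). Gabra5 (ENSMUSG00000055078, chr7:57407672-57510059, minus strand), known for tonic inhibition in hippocampus, had 29.0, 25.8, 21.4 and 34.4 in normal mice and 29.4, 24.7, 20.6 and 29.6 in HFD mice. Both diets spread widely and overlapped almost completely. The summed hippocampal markers were 58.1, 53.7, 52.5 and 59.2 in normal mice and 74.5, 59.0, 44.6 and 65.1 in HFD mice, with mice 2 and 3 of each diet the lowest in both Gabra5 and this sum, and the relation was not tested. Wfs1, which was higher in HFD mice, made up 44.7% of this sum, and the other 5 markers were lower on average. The log2 fold change of Gabra5 was -0.08, with a 95% interval from -0.42 to 0.27 (limma, adjusted p = 0.720). Without normal mice 2 and 3 together, Gabra5 was at -0.29 (adjusted p = 0.197 from limma) and Gabra2 at -0.22 (adjusted p = 0.138). Both intervals from all 8 mice include 0 and leave room for a change of either sign.

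**Figure D3:**
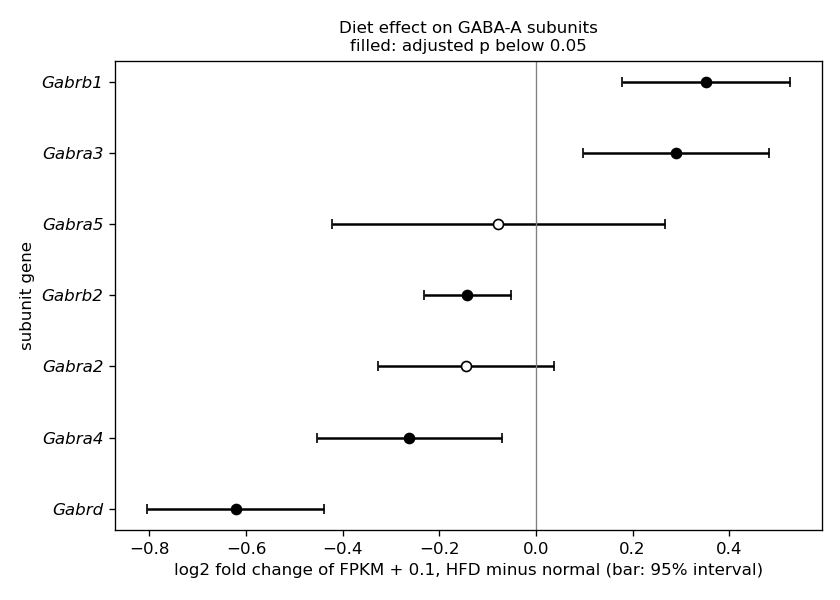
Log2 fold change of FPKM + 0.1, HFD minus normal (horizontal axis), with its 95% interval (bars) for the 7 subunits. Filled points have an adjusted p below 0.05 in limma, and Gabrd at -0.62 lies farthest from 0.

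The order of levels in normal mice was Gabrb2, Gabrd, Gabra4, Gabra5, Gabra3, Gabra2 and Gabrb1, with mean FPKM of 74.7, 42.2, 39.4, 27.7, 23.8, 19.6 and 12.3. Gabrb2 was clear of the next gene and Gabra2 of Gabrb1, while the ranges of every other neighbouring pair overlapped. In HFD mice the order was Gabrb2, Gabra4, Gabra3, Gabrd, Gabra5, Gabra2 and Gabrb1, with 67.7, 32.7, 29.1, 27.4, 26.1, 17.7 and 15.7. Gabrd thus moved from rank 2 to rank 4. In HFD mice the ranges of Gabra3, Gabrd and Gabra5 overlapped between neighbours, as did those of Gabra2 and Gabrb1. By mean FPKM over all mice, Gabrb2 was above 93.1% of genes tested and Gabrb1 above 60.9%.

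Ratios of subunits within a mouse do not depend on scaling between mice. They were compared for 5 pairs by exact permutation (two-sided; of the 70 assignments of mice the smallest p possible is 0.0286), adjusted over the 5. The pairs were chosen with earlier results of these data known, so these p describe the ratios and are not independent support. The ratio of Gabrd to Gabra4, the partners of tonic receptors, was 0.936, 1.12, 1.32 and 0.966 in normal mice and 0.801, 0.810, 0.897 and 0.844 in HFD mice. Every HFD mouse was below every normal mouse, by -0.36 on the log2 scale (exact p = 0.0286, adjusted p = 0.0476). The difference was -0.18 without normal mice 2 and 3 (adjusted p = 0.167 in the exact test, where the smallest p possible is 0.0667). The ratio of Gabrb1 to Gabrb2 was 0.172, 0.147, 0.151 and 0.191 in normal mice and 0.228, 0.242, 0.212 and 0.247 in HFD mice, higher in each HFD mouse, by 0.49 (exact p = 0.0286, adjusted p = 0.0476). Gabra3 to Gabra2 was 1.26, 1.15, 1.17 and 1.28 against 1.41, 1.60, 1.93 and 1.67, higher in every HFD mouse than in any normal mouse, by 0.43 (exact p = 0.0286, adjusted p = 0.0476). Gabra2 to Gabra4 (0.12, exact p = 0.400, adjusted p = 0.50) and Gabra5 to Gabrb2 (0.06, exact p = 0.771, adjusted p = 0.771) overlapped between diets, and the latter was at -0.18 without normal mice 2 and 3. With any 1 mouse left out, the adjusted p of the 3 passing ratios in the exact test lay between 0.0714 and 0.143. Without normal mice 2 and 3, Gabrb1 to Gabrb2 was at 0.35 (adjusted p = 0.167 in the exact test). Gabra3 to Gabra2 was then at 0.37 (adjusted p = 0.222 in the exact test), again with 0.0667 as the smallest p possible.

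**Figure D4:**
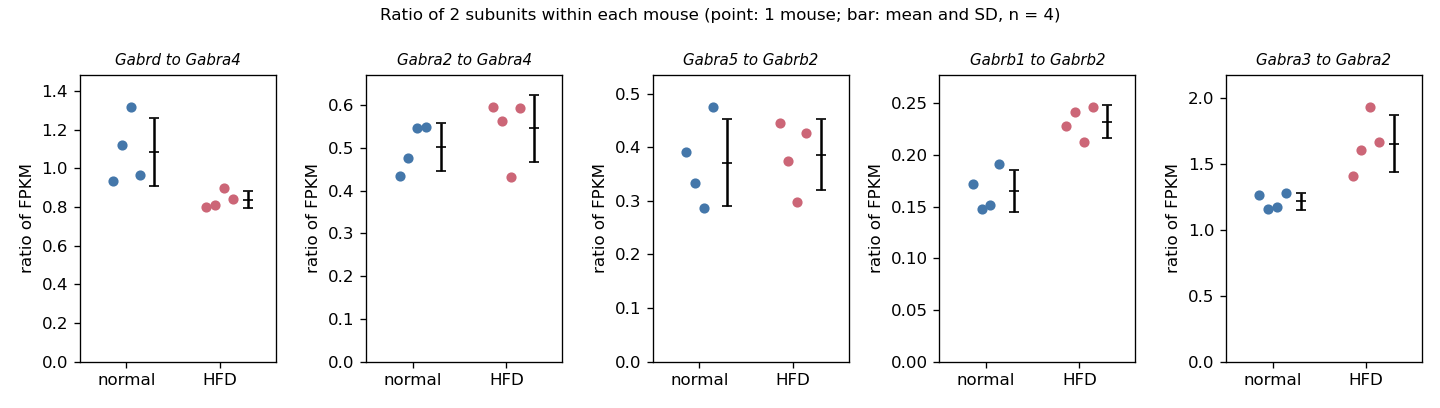
Ratio of FPKM of 2 subunits within each mouse (vertical axis, from 0) for the 5 pairs, with the mean and SD (bars, n = 4). The diets separate for Gabrd to Gabra4, Gabrb1 to Gabrb2 and Gabra3 to Gabra2.

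Promoter windows, from 250 bases before to 50 after each start, were in the RefSeq table for 6 of the 7 subunits, 10 windows in all, among 32851. Gabrd, the subunit with the largest change, had no window. Letters were searched on both strands, and none of the motifs contains another. The TATA box (TATAAA), in 13.6% of all windows, was in those of Gabra3 and in 1 window of Gabrb2. The CCAAT box, in 37.4% of all windows, was in 6 of the 10, from 5 subunits. The GC box (GGGCGG), in 35.7% of all windows, was in 3 of the 10, 1 each of Gabra2, Gabra4 and Gabrb2. The letters TGACGTCA (CRE, 1.79%), GCGTGGGCG (EGR, 0.612%) and CACGTG (E-box, 7.15%) were in none of the 10. The GC share was 70% for Gabra2, 58.7% for Gabra4, 66.0% and 50.3% for the windows of Gabrb1, and 43.0% for the Gabra3 window of the stretch above, beside a median of 52.7% over all windows, so the subunits that rose differed among themselves. A match is a description of letters, and the windows were not tested against the direction of change.

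The genes with the most similar 8-mouse profiles were found by the root mean square difference of log2(FPKM + 0.1) centred on each gene, among the other 13981 genes tested. For Gabrd these were Ryr1 (difference 0.0617) and Scd1 (0.0675). Gabra4 was most like Klhl2 (0.0386) and Gpr155 (0.0459), and Gabrb2 most like Mtx2 (0.0249) and Rrn3 (0.0255). For the subunits that rose, Gabrb1 was most like Ak5 (0.0255) and Cdk14 (0.0429), and Gabra3 most like Cacna1d (0.0366) and Pdk1 (0.0467). Gabra2 was most like Slc25a40 (0.0392) and Tank (0.0483), and Gabra5 most like Mcm6 (0.0341), with Rgs12 farther away (0.0975). A small difference between genes in 8 mice says nothing of shared function.

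Of 22 scaffold, trafficking and partner genes tested, 4 were higher and 4 lower, beside 17.7% and 15.3% of all genes, with a median of 0.04. These counts are near the shares over all genes, as calls were common, so the genes below are given one by one and not as a result about the list. Gphn, the gephyrin scaffold of inhibitory synapses, was lower, at 29.1, 31.0, 31.7 and 27.7 in normal mice and 25.7, 27.2, 25.7 and 26.3 in HFD mice (-0.19, adjusted p = 0.0231 from limma). Gabarapl2, Trak2 and Rdx, the last of which anchors alpha5 receptors to actin, were lower by log2 changes of -0.25, -0.22 and -0.38. Nlgn2, the adhesion molecule of inhibitory synapses, was higher, at 20.6, 17.1, 18.4 and 23.9 against 29.7, 31.0, 33.2 and 29.5 (0.63, adjusted p = 0.00178 from limma). Nlgn2 and Gphn thus moved in opposite directions, each without overlap between the diets. The other 3 that rose, named after their values were seen, were Shisa7 (0.75), Iqsec3 (0.56) and Slitrk3 (0.20, adjusted p = 0.0492 from limma). The Slitrk3 call was lost without a variance trend, with the replicate block, under both other scalings, when either normal mouse 2 or 3 or any HFD mouse was left out, and without normal mice 2 and 3 together (0.085, adjusted p = 0.308), where Shisa7 (0.55) and Iqsec3 (0.46) still passed. Without normal mice 2 and 3 together, Nlgn2 (0.47) and Rdx (-0.24) passed in limma, while Gphn (-0.11, adjusted p = 0.147), Gabarapl2 (-0.14, adjusted p = 0.125) and Trak2 (-0.20, adjusted p = 0.0606) did not. Gphn was also lost without normal mouse 2 (0.0649), normal mouse 3 (0.0574), HFD mouse 1 (0.0609) or HFD mouse 3 (0.0533), and Gabarapl2 without normal mouse 2 (0.0561), normal mouse 3 (0.0507) or HFD mouse 2 (0.0601). With replicate number as a block neither passed in limma (Gphn 0.0527, Gabarapl2 0.0655).

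Of 8 genes of GABA synthesis, vesicles, uptake and breakdown, 4 were lower and none higher, with a median of -0.25. For this list and the GABA-B, chloride transport and transcription lists below, 15.3% of all genes were lower and 17.7% higher, and no count was tested against those shares. Gad1 and Gad2, which make GABA, were lower, with log2 changes of -0.23 and -0.35 (limma, adjusted p = 0.00863 and 0.00892). Slc32a1, the vesicular GABA transporter, was 18.3, 23.1, 27.3 and 20.5 in normal mice and 16.6, 17.3, 19.3 and 15.2 in HFD mice (-0.37, adjusted p = 0.0377 from limma), and Abat, which breaks GABA down, was at -0.26 (adjusted p = 0.0339 from limma). For Slc32a1 normal mice 2 and 3 were the highest and the diets overlapped. Without normal mice 2 and 3 together, Gad1 (-0.24, adjusted p = 0.0398) and Gad2 (-0.22, adjusted p = 0.0468) passed in limma. Slc32a1 (-0.18, adjusted p = 0.207) and Abat (-0.10, adjusted p = 0.145) then did not. With single mice left out, Slc32a1 was lost without normal mouse 2 (0.0888) or 3 (0.0735) and HFD mouse 1 (0.0836), 2 (0.0759) or 4 (0.0926), and Abat without normal mouse 2 (0.0855) or 3 (0.0823) and each of HFD mice 1 to 4 (0.0529 to 0.0797). Without the variance trend neither passed in limma (Slc32a1 0.0574, Abat 0.0556), and Abat did not pass after quantile normalization (0.0520). Of the 12 interneuron markers, 2 were higher, among them Vip (0.65, adjusted p = 0.0128 from limma), and 4 were lower. The lower ones included Gad1, Gad2 and Pvalb, which also stand in other lists. The 12 summed to 934.8, 852.9, 797.5 and 943.2 in normal mice and 884.3, 845.9, 961.7 and 829.6 in HFD mice. Cck was the most abundant and none was at 0. These sums overlapped, and which cells the lower values come from was not tested.

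Among 5 GABA-B receptor genes, 1 was higher and 1 lower, with a median of -0.04. Gabbr2, the receptor subunit that couples to G proteins, was 57.4, 56.5, 50.9 and 60.1 in normal mice and 76.6, 81.8, 85.5 and 75.2 in HFD mice (0.50, adjusted p = 0.000900 from limma). Its partner Gabbr1, which binds GABA, was at -0.04 (limma, adjusted p = 0.488), and the accessory gene Kctd12 was lower (-0.44). Among 6 chloride transport genes, 2 were higher and 2 lower, with a median of 0.08. Slc12a5, which exports chloride from neurons and so sets the direction of the GABA-A current, was 101.3, 93.7, 99.1 and 103.8 in normal mice and 114.8, 124.3, 130.7 and 112.1 in HFD mice (0.27, adjusted p = 0.00742 from limma). Slc12a2, which imports chloride and is also found in glia, was 21.6, 25.6, 25.2 and 18.6 in normal mice and 14.8, 15.1, 17.7 and 17.2 in HFD mice (-0.48, adjusted p = 0.00866 from limma). The exporter rose and the importer fell, each without overlap between the diets. Clcn2 was higher (0.47) and Oxsr1 lower (-0.28), the latter not past the threshold without normal mouse 2 (adjusted p = 0.0533 from limma). If normal mice 2 and 3 were both left out, Gabbr2 (0.44) and Clcn2 (0.39) passed in limma, while Slc12a5 (0.23, adjusted p = 0.0509), Slc12a2 (-0.31, adjusted p = 0.0557), Kctd12 (-0.29, adjusted p = 0.110) and Oxsr1 (-0.16, adjusted p = 0.130) did not. Kctd12 and Oxsr1 were also lost with replicate number as a block (limma, adjusted p = 0.0566 and 0.0548).

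Of 8 genes named in the transcription of GABA-A subunits, 2 were higher and 1 lower, with a median of 0.04. Egr3, a zinc finger factor that is known to act on Gabra4, was 16.6, 12.8, 11.3 and 19.4 in normal mice and 27.7, 30.9, 37.2 and 24.8 in HFD mice (1.02, adjusted p = 0.00301 from limma). Every HFD mouse was above every normal mouse, while Gabra4 was lower in HFD mice. Ntrk2, the receptor of Bdnf, was higher (0.26, adjusted p = 0.00269 from limma) and Egr2 lower (-0.80, adjusted p = 0.0117 from limma). These 3 calls held without normal mice 2 and 3.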

How the data were processed

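The authors deposited FPKM values rounded to 0.1, from reads checked with FastQC, trimmed with Trimmomatic, aligned by STAR to mm10 and quantified by Cuffnorm with GENCODE M17 (tool versions not given in the sources used), and the authors ran Salmon and edgeR in a further pipeline not analysed here. Each mouse's FPKM summed to between 562431 and 639142, and FPKM hold no read counts, so no interval from depth can be given. From them log2(FPKM + 0.1) was tested by limma 3.58.1 (R 4.3.3; variance trend, no covariate), over 13982 genes, and a fold change on that scale understates the change of low genes. The limma procedure was tested on simulated data with independent noise in each gene, without differences shared by a whole library. Ratios were compared by exact permutation, and tables and figures were made in Python 3.11.15 (matplotlib 3.10.9, numpy 2.4.6, pandas 2.3.3). Gene positions and exons come from GENCODE M21, whose models may differ from M17. The share of each subunit in the RNA of its class and the counts for the list of subunits outside the 7 are not reported here. From each list the text names up to 4 of the most abundant genes that passed, and defining genes. The members, lists and ratio pairs were chosen with earlier results of these data known. Mice on each diet are separate animals, and no pair of libraries was identical across all genes.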

Additional observations from a re-analysis of the deposited data

Results flagged for a closer look

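In 60 groups of 4 values (subunits, ratios and list sums by diet), the farthest mouse was checked by its gap to the nearest other mouse over the range, and 4 exceeded Dixon's 95% critical value, which chance exceeds in about 1 of 20 groups. Gabra2 in HFD mice had a value of 0.973, as HFD mouse 3 was at 15.0 and the others between 18.6 and 18.7. The striatal marker sum in HFD mice had 0.931, with HFD mouse 3 at 120.5, and the oligodendrocyte sum 0.897, with the same mouse at 2019.1. The choroid plexus and ependyma sum in HFD mice had 0.940, with HFD mouse 4 at 941.8 and the others between 23.4 and 78.1. Without HFD mouse 3, Gabra2 was at -0.07 (adjusted p = 0.430 from limma). The part of these libraries in the subunit results beyond the values given was not tested.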

How the results depend on the processing

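The other constants, filters and scalings tried kept the direction of all 7 subunits and the calls of the 5 that passed, and no scaling moved the median of all genes by over 0.1. Without a variance trend Gabra4 (-0.26) was not past the threshold. The labels do not say whether same-numbered mice of the 2 diets share anything beyond the number. Across all genes tested, their deviations had correlations of -0.038, -0.028, -0.109 and -0.072. These values cannot tell whether mice were paired or shared a batch. With the number as a block, 1 subunit was higher and 1 lower past the threshold, and 3390 genes in all; Gabra3 (0.29), Gabra4 (-0.26) and Gabrb2 (-0.14) were not past it. Without normal mice 2 and 3 together, 0 subunits were higher past the threshold, with 2743 genes in all (1528 higher, 1215 lower); Gabra5 was at -0.29, Gabra2 at -0.22, Gabra3 at 0.15, Gabrb1 at 0.24, Gabrb2 at -0.11, and the ratios of Gabrd to Gabra4 and Gabra5 to Gabrb2 both at -0.18, with fewer mice. Leaving out each mouse gave 1 to 2 subunits higher and 1 to 3 lower, and 1804 to 2476 of all genes higher and 1475 to 2143 lower, with ranges of 0.23 to 0.35 for Gabra3, -0.32 to -0.18 for Gabra4, -0.19 to 0.033 for Gabra5 and -0.16 to -0.12 for Gabrb2. The ratios then ranged from -0.43 to -0.26 for Gabrd to Gabra4, 0.050 to 0.23 for Gabra2 to Gabra4, -0.053 to 0.19 for Gabra5 to Gabrb2, 0.44 to 0.56 for Gabrb1 to Gabrb2 and 0.36 to 0.51 for Gabra3 to Gabra2. The cause of these changes was not tested. The 61 other genes checked were picked from the lists by the naming rule or named after their values were seen. Not all are printed. None reversed under any alternative, and 27 lost their call without normal mice 2 and 3. Among printed markers these were Calb2, Itpr1, Slc17a7, Mbp, Pvalb, Wfs1, Folr1, Clic6, Slc1a2, Gfap, Sox10 and Fibcd1. The unknown depth limits the precision of low genes.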

Other observations

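Other marker lists were measured beside the subunits, and their counts stand beside 15.3% lower and 17.7% higher of all genes tested. Of 7 choroid plexus and ependyma markers, 5 were lower in HFD mice, with sums of 671.2, 576.4, 738.0 and 348.5 in normal mice and 78.1, 23.4, 32.1 and 941.8 in HFD mice. Ttr was the most abundant and none was at 0. The calls of Folr1 and Clic6 were both lost in limma without normal mouse 1 (adjusted p = 0.0663 and 0.0754). The same held without normal mouse 2 or 3, or HFD mouse 1, 2 or 3. The sum of HFD mouse 4 was the highest of all 8, so the diets overlapped. Gabrd was 26.5 in this mouse, and the part of these markers in the subunit results was not tested. Of 8 astrocyte markers, 1 was higher and 3 lower, with mean sums of 805 ± 35.8 and 763 ± 17.1 (SD, n = 4). The calls of Slc1a2 (higher) and Gfap (lower) were both lost in limma without normal mouse 2 or 3, or HFD mouse 2 or 3. Of 5 oligodendrocyte precursor markers, 2 were higher and 2 lower, with 43.0 ± 2.48 and 41.7 ± 1.83 (SD, n = 4). The calls of Sox10 (lower) and Olig2 (higher) were both lost in limma without normal mouse 1 (adjusted p = 0.052 and 0.090). The same held without normal mouse 3, HFD mouse 2 or HFD mouse 4. None of the 6 microglia markers with values passed in limma, with 117 ± 10.2 and 116 ± 4.57 (SD, n = 4). Of 6 hippocampal markers with values, 1 was higher and 2 lower, with a median log2 fold change of -0.49. Their mean sums were 55.9 ± 3.27 and 60.8 ± 12.5 (SD, n = 4), and the rise lies in Wfs1, the most abundant, while the other 5 were lower on average in HFD mice. The call of Fibcd1 (lower) was lost in limma without any 1 of the normal mice, HFD mouse 2 or HFD mouse 3.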
